A study of Mus musculus with 13 samples.

Results

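Mouse blastocysts cultured in KSOM, a simple embryo medium, from which protein and carbohydrate components were left out (depleted KSOM, 2 libraries) were compared with blastocysts from a starvation treatment (starvation, 2 libraries) across all genes. These 4 libraries were chosen by their labels from the 13 of the series. All 4 were made from whole wild-type blastocysts of embryonic day 5.5 on the mixed B6D2F1 background. The comparison sets a lack of nutrients met directly in the dish against a lack of nutrients met through the mother. The labels give neither the length nor the form of the starvation, and they name no group kept in complete KSOM, so culture as such and the missing components cannot be told apart. They do not say whether replicates were separate mothers or separate cultures, so p-values reflect the spread among these samples, which may be technical. The other 9 libraries lent their spread to the test and serve as a background of levels. They were E4.5 (day 4.5, mothers on a normal diet, n = 2), OVX (ovariectomised mothers, n = 2), KSOM with less arginine, leucine, isoleucine, lysine, glucose and lactate (reduced KSOM, n = 3) and blastocysts of ovariectomised mothers carrying guides against Nprl2 and Tsc2 (targeted OVX, n = 2). Those 4 groups share the B6D2F1 background, and all but E4.5 were of day 5.5.

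In embryonic diapause the blastocyst stops dividing and growing before it implants, and it can resume later. Cells sense scarce amino acids through the kinase GCN2, which favours translation of the transcription factor ATF4, and through loss of activity of the growth kinase complex mTORC1. Scarce glucose shifts fuel use towards fatty acids, which enter mitochondria as carnitine esters. The preimplantation embryo also draws on stored lipid and on pyruvate, and its trophectoderm pumps ions to fill the blastocoel.

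The 4 libraries held 64033400 and 71353685 counts in starvation and 72125687 and 68518589 in depleted KSOM. Xist and 4 Y-linked genes separated the groups completely. The 4 Y-linked genes Ddx3y, Eif2s3y, Kdm5d and Uty summed to 0 and 0.437 CPM (counts scaled to library size) in starvation and to 126 and 123 CPM in depleted KSOM. Xist, the RNA that silences an X chromosome in female cells, stood at 190 and 128 CPM in starvation and at 3.04 and 1.51 CPM in depleted KSOM. The sex make-up of the embryos, which the labels do not give, and the treatment therefore cannot be told apart in this comparison. Defining markers of the blastocyst were present in all 4 libraries, and summed CPM of the trophectoderm list were 20044 and 14121 in starvation and 15869 and 17545 in depleted KSOM. Markers of tissues outside the embryo were uneven. Of 15 skeletal muscle markers, 5 were at 0 in all 4 libraries, and the list's sum of 141 to 465 CPM came mostly from Mylpf. Ckm, Tnnt3, Tnnc2 and Eno3, 4 of the 15, were lower in depleted KSOM at an unadjusted p under 0.05, and 0 were higher. All genes had shares of 7.13% lower and 4.86% higher. Ckm stood at 6.34 and 0.850 CPM in starvation against 0.345 and 0 CPM, and Tnnt3 at 2.73 and 1.05 CPM against 0 and 0 CPM. The 15 neutrophil and myeloid markers summed to 32.8 and 128 CPM in starvation and 118 and 119 CPM in depleted KSOM, most of it from Csf3r (31.9 and 115 CPM against 108 and 111 CPM). Ptprc, which marks all white blood cells, was at 0 in both starvation libraries and at 0.851 and 0.675 CPM in depleted KSOM. Lcn2 was at 0 in both starvation libraries against 0.678 and 0.904 CPM. Of the 15 markers, 11 had a log2 fold change above 0 and 4 below. Ltf lay lower in depleted KSOM, at 0.906 and 1.31 CPM in starvation against 0.777 and 0.553 CPM. S100a9 overlapped, at 0 and 5.82 CPM against 1.11 and 1.28 CPM. The 8 tested blood markers summed to 348 CPM in depleted KSOM replicate 1, against at most 45.5 CPM in the other 3 libraries. Of the 45.5 CPM, in starvation replicate 2, Alb gave 43.8 CPM. The globin genes Hba-a1, Hba-a2, Hbb-bs and Hbb-bt were higher in both depleted KSOM libraries without passing. Hba-a1 stood at 0 and 0.287 CPM in starvation against 178 and 1.39 CPM, and Hbb-bs at 0 and 0.172 CPM against 67.7 and 1.97 CPM. Alas2, Slc4a1, Alb and Pf4 overlapped. The 17 tested uterine markers summed to 31.8 and 106 CPM in starvation and to 17.9 and 11.8 CPM in depleted KSOM, and the 6 tested cumulus and oviduct markers to 16.8 CPM in starvation replicate 2 and at most 2.02 CPM elsewhere. The part of these tissues in the results below was not tested.

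**Figure D1:**
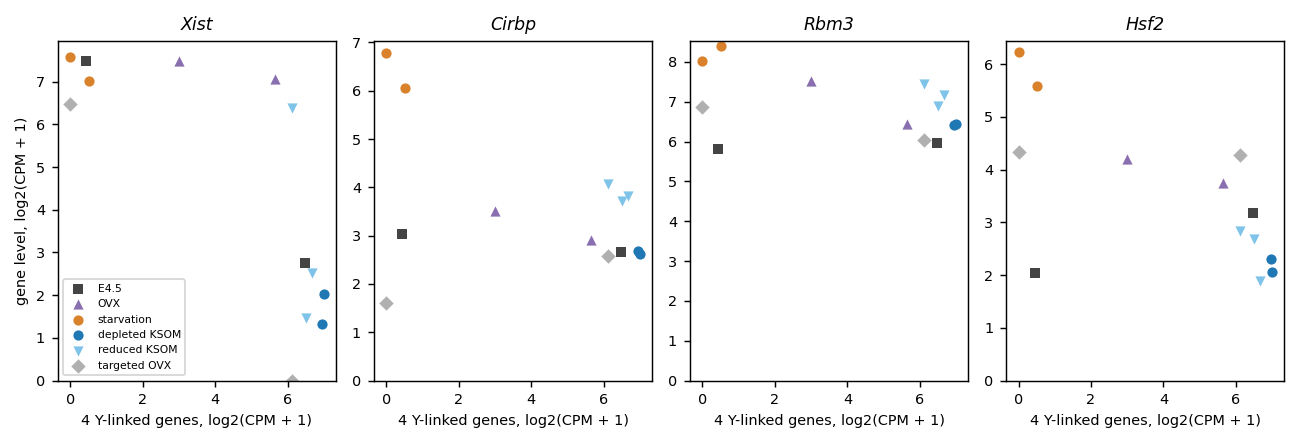
Each point is 1 of the 13 libraries. The horizontal axis gives the summed level of 4 Y-linked genes and the vertical axis the level of Xist, Cirbp, Rbm3 or Hsf2, all as log2(CPM + 1). The starvation libraries lie at the left edge and the depleted KSOM libraries at the right edge. For Cirbp, the other libraries at the left edge lie far below starvation.

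Of 21808 genes tested with edgeR's quasi-likelihood test, 50 passed a Benjamini-Hochberg adjusted p of 0.05 (0.229% of those tested). Depleted KSOM was higher for 14 of them (0.0642%) and lower for 36 (0.165%), and for each of the 50 the 2 starvation libraries were separate from the 2 depleted KSOM libraries, as for 34.8% of all genes tested (16.8% higher and 18% lower). At an unadjusted p under 0.05 there were 1059 genes higher (4.86%) and 1555 lower (7.13%), and over all genes the log2 fold change had a median of −0.03. The smallest adjusted p was 0.0197. In 32 of the 36 lower genes both depleted KSOM libraries lay below all 9 libraries of the other groups, while starvation lay above all 9 in 5. Of the 14 higher genes, depleted KSOM lay above all 9 in 8 and starvation below all 9 in 8. The shares of all genes lying so were not counted. Of the 36, 15 had no count in either depleted KSOM library and entered the test only through other libraries. The number of 50 calls rested on few libraries. It was 15 without depleted KSOM replicate 1, 18 without depleted KSOM replicate 2 and 482 without starvation replicate 2. A fit of only these 4 libraries called none (smallest adjusted p 0.437, 1680 genes at an unadjusted p under 0.05), and DESeq2 called 1245. With the Y-linked level as a covariate none was called by edgeR (smallest adjusted p 0.132, 1556 genes at an unadjusted p under 0.05). All 50 kept their direction in that fit, which is no independent support, since they were called in the same libraries.

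Among called genes whose mean log2 CPM reached 4, the largest fold was that of a cold-inducible RNA-binding protein. Cirbp, which binds mRNAs and is induced by mild cooling (chromosome 10, 80165985 to 80171655 on GRCm38), stood at 109 and 65.8 CPM in starvation and at 5.18 and 5.40 CPM in depleted KSOM. It was 16.5-fold lower in depleted KSOM (log2 fold change −4.04 ± 0.52 SE, adjusted p = 0.0205). The other 9 libraries held 2.03 to 15.9 CPM, so the starvation libraries alone stood apart. Against E4.5, the log2 fold change was 3.80 in starvation (adjusted p = 0.00657) and −0.24 in depleted KSOM (adjusted p = 0.832). With the Y-linked covariate, Cirbp kept a log2 fold change of −4.25 with an adjusted p of 0.132. Its relative Rbm3, also a cold-induced RNA-binding protein and X-linked, was looked up after the Cirbp values were seen. Rbm3 stood at 257 and 337 CPM in starvation and at 85.5 and 83.9 CPM in depleted KSOM, without overlap, and did not pass (log2 fold change −1.81, adjusted p = 0.0999).

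Hsf2, a heat shock transcription factor active in gametes and early embryos, followed the pattern of Cirbp. It stood at 74.0 and 47.2 CPM in starvation and at 3.16 and 3.95 CPM in depleted KSOM (log2 fold change −4.09 ± 0.59, adjusted p = 0.0257). Against E4.5 it was higher in starvation (3.44, adjusted p = 0.013), and depleted KSOM had a log2 fold change of −0.65 (adjusted p = 0.487). Hsf1, the main factor of the stress response, was at 5.31 and 5.03 CPM in starvation and at 26.6 and 20.4 CPM in depleted KSOM without passing (adjusted p = 0.113). Of the 20 heat shock genes tested, Hsf2 was the 1 that passed, beside 0.165% of all genes called lower. The median of the list was −0.18, close to that of all genes, and Hspa8, a constitutive chaperone, stood at 1198 and 839 CPM in starvation and at 452 and 615 CPM in depleted KSOM (adjusted p = 0.353).

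Genes higher in depleted KSOM came from several functions. Itgav, the αv integrin subunit that receives matrix proteins at implantation, stood at 1.83 and 2.87 CPM in starvation and at 34.5 and 28.1 CPM in depleted KSOM. It was 13.3-fold higher (3.73 ± 0.46, adjusted p = 0.0197), and every library of the other groups lay between the groups, at 8.72 to 25.3 CPM. Against E4.5 it was lower in starvation (−2.27, adjusted p = 0.0191), while the value in depleted KSOM was 1.46 (adjusted p = 0.0617). Pan3, a subunit of the deadenylase that begins to shorten the poly(A) tail of mRNAs, stood at 12.9 and 31.8 CPM in starvation and at 152 and 203 CPM in depleted KSOM. It was 7.95-fold higher (2.99 ± 0.45, adjusted p = 0.0273), and the other 9 libraries reached at most 25.5 CPM. Hcls1, an actin-binding protein best known from blood cells, stood at 6.34 and 5.96 CPM against 57.2 and 44.2 CPM (3.04 ± 0.54, adjusted p = 0.0444). The white blood cell marker Ptprc had counts in those depleted KSOM libraries and none in starvation, as given above. Ltf and S100a9 had counts in both groups, and the part of blood cells in the Hcls1 difference was not tested. Ttc3, a ubiquitin ligase, stood at 11.2 and 12 CPM against 117 and 67.6 CPM (2.99 ± 0.43, adjusted p = 0.0257). For Pan3, Hcls1 and Ttc3 alike, depleted KSOM was higher than E4.5 (log2 fold changes 3.31, 4.42 and 3.15, adjusted p = 0.0027, 0.00221 and 0.0027) and starvation did not pass.

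Further called genes were higher in depleted KSOM. For Mrps6 and Fbxo27 among them, starvation lay below the other groups and depleted KSOM within their range. Mrps6, a protein of the small mitochondrial ribosomal subunit, stood at 11.1 and 18.7 CPM in starvation and at 63.0 and 73.9 CPM in depleted KSOM (2.20 ± 0.36, adjusted p = 0.037), and the other libraries held 38.8 to 97.5 CPM. Fam136a, a mitochondrial protein, stood at 28.7 and 48.0 CPM against 153 and 168 CPM (2.07 ± 0.34, adjusted p = 0.037). Fbxo27, which recognises glycoproteins for ubiquitination, stood at 0.156 and 0.0459 CPM in starvation and at 18 and 13.5 CPM in depleted KSOM (adjusted p = 0.0231), with 2.91 to 37.4 CPM elsewhere. Against E4.5, Fbxo27 was lower in starvation (−5.89, adjusted p = 0.0107). Mogat2, which makes diacylglycerol, had no count in either starvation library and 0.912 and 0.742 CPM in depleted KSOM, at least 21.5-fold higher when 3 counts per library serve as the floor. Mapre2, a microtubule end-binding protein, and Hdhd2, a phosphatase-like protein, were also higher, by 2.39 ± 0.39 and 2.04 ± 0.36 on the log2 scale (adjusted p = 0.0354 and 0.0433).

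**Figure D2:**
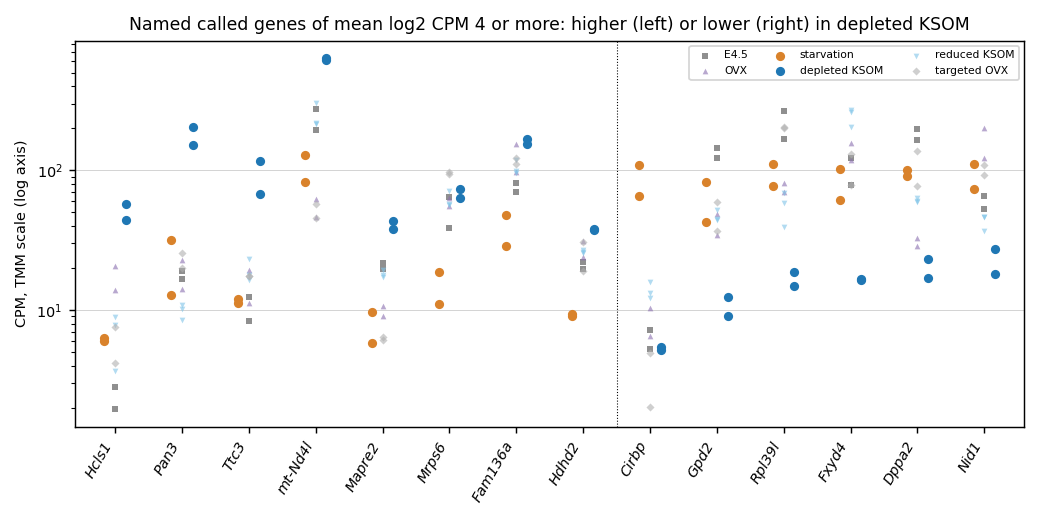
Level of each named called gene whose mean log2 CPM reached 4, in CPM on a logarithmic axis, with 1 symbol per library. Genes to the left of the dotted line were higher in depleted KSOM and those to the right were lower. For Hcls1, Pan3 and Ttc3 the depleted KSOM points lie above all others, for Mrps6 and Hdhd2 the starvation points lie below all others, and for Cirbp the starvation points lie above all others.

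Several abundant genes lower in depleted KSOM were at higher levels in all the other groups. Dppa2, which binds chromatin in pluripotent cells and the early embryo, stood at 99.6 and 90.6 CPM in starvation and at 17.0 and 23.2 CPM in depleted KSOM (−2.24 ± 0.34, adjusted p = 0.0273). The other libraries held 28.9 to 198 CPM, so both depleted KSOM libraries were the lowest of the series. Gpd2, the mitochondrial glycerol-3-phosphate dehydrogenase that passes electrons from glycolysis to the respiratory chain, stood at 82.4 and 42.6 CPM against 12.3 and 9.04 CPM (−2.55 ± 0.41, adjusted p = 0.0319). Nid1, a basement membrane protein, stood at 73.2 and 110 CPM against 27.1 and 18 CPM (−2.02 ± 0.37, adjusted p = 0.0474). Both also lay below every other library, at 34.6 or more for Gpd2 and 36.8 or more for Nid1. Ribosomal protein genes of restricted expression were among these genes. Rpl39l stood at 110 and 77.2 CPM against 18.6 and 14.8 CPM (−2.49 ± 0.37, adjusted p = 0.0273). Rpl10l stood at 26.4 and 28.8 CPM against 3.38 and 5.92 CPM (−2.57 ± 0.41, adjusted p = 0.0319). Both are close copies of ribosomal protein genes expressed in all cells, so reads could be split between copies.

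Genes of the germ line and of chromatin formed another group of called genes, put together after their values were seen. Gtsf1, a partner of piRNA-directed silencing, stood at 3.84 and 3.27 CPM in starvation and had no count in either depleted KSOM library, at least 91.8-fold lower (adjusted p = 0.0197). Smc1b, the meiotic cohesin subunit, stood at 0.963 and 1.39 CPM and likewise had no count in depleted KSOM, at least 30.4-fold lower (adjusted p = 0.0197). In the other 9 libraries Gtsf1 held 1.34 to 13.7 CPM and Smc1b 0.733 to 26 CPM, and depleted KSOM was lower than E4.5 for both (adjusted p = 0.00152 and 0.000866). Suv39h2, a histone H3 lysine 9 methyltransferase, stood at 34.4 and 33.5 CPM in starvation and at 3.29 and 5.05 CPM in depleted KSOM (−3.02 ± 0.51, adjusted p = 0.037). Mre11a, the nuclease of the double-strand break complex, stood at 26.3 and 25.2 CPM against 3.34 and 4.02 CPM (−2.81 ± 0.44, adjusted p = 0.0302). For Gtsf1, Smc1b, Itgav and Fbxo27 the adjusted p stayed below 0.05 whichever of the 4 libraries was left out, with a highest value of 0.0486 for Gtsf1 and Smc1b. Mre11a and Suv39h2 reached 0.174 and 0.205.

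In all, 15 of the 36 lower genes had no count in either depleted KSOM library. They were of low abundance in starvation, and their bounds ran from at least 30.4-fold to at least 229-fold lower. Among them Pfn2, an actin regulator, stood at 2.87 and 7.62 CPM in starvation (adjusted p = 0.0273) and Serpinb1a, a protease inhibitor, at 3.65 and 4.53 CPM (adjusted p = 0.0273). Starvation replicates differed widely in some others. Csta1, a cysteine protease inhibitor, stood at 52.0 and 7.77 CPM in starvation and at 0.148 and 0.499 CPM in depleted KSOM (adjusted p = 0.0397). Of 786 X-linked genes tested, 3 were called, all lower in depleted KSOM, beside 33 lower of 20969 autosomal genes and 0.165% of all genes. Ercc6l, a mitotic helicase, stood at 4.47 and 9.03 CPM against 0.222 and 0.108 CPM (adjusted p = 0.0208), and Naa10, the catalytic subunit of an N-terminal acetyltransferase, at 46.6 and 20.6 CPM against 3.53 and 5.02 CPM (adjusted p = 0.037). Tsx stood at 4.77 and 1.55 CPM in starvation and at 0 in both depleted KSOM libraries (adjusted p = 0.0302). Among genes whose mean log2 CPM reached 4, the median log2 fold change was −0.27 over 176 X-linked genes and −0.02 over 5323 autosomal genes.

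Transcripts of the mitochondrial genome took a larger share of counts in both depleted KSOM libraries. The genome encodes 13 subunits of the respiratory chain and ATP synthase. Mitochondrially encoded genes took 5.10% and 7.40% of all counts in starvation and 12.2% and 13.2% in depleted KSOM, which is 12.7% ± 0.670 against 6.25% ± 1.63 (SD, n = 2 each). The difference of 6.45 percentage points had an exact two-sided permutation p of 0.333, the smallest that 2 against 2 libraries allow. The other 9 libraries held 2.05% to 6.69%, so both depleted KSOM libraries were the highest of the series. All 13 mRNAs were higher in both depleted KSOM libraries than in both starvation libraries, which 16.8% of all genes tested were. The median log2 fold change of the 13 was 1.20, 10 reached an unadjusted p under 0.05 (4.86% of all genes), and 1 was called (0.0642%). That gene, mt-Nd4l, a subunit of complex I, stood at 83.0 and 129 CPM in starvation and at 632 and 612 CPM in depleted KSOM (2.55 ± 0.35, adjusted p = 0.0251). The called predicted gene Gm10222 stood at 58.4 and 117 CPM against 602 and 594 CPM, and its reads could be shared with the mitochondrial genome.

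The 13 mRNAs did not move by 1 factor. Cytochrome b, mt-Cytb, stood at 4807 and 6594 CPM in starvation and at 22500 and 25161 CPM in depleted KSOM without passing (2.06 ± 0.41, adjusted p = 0.0696). A similar difference was seen for mt-Nd5, another complex I subunit, at 399 and 1227 CPM against 3142 and 3696 CPM (2.07 ± 0.45, adjusted p = 0.0864). At the other end lay mt-Nd2, with 1673 and 791 CPM against 2028 and 2213 CPM (0.78, adjusted p = 0.462). Neighbouring mitochondrial genes overlap and are cut from long transcripts, so their counts are not independent. The nuclear genes of the same complexes did not share this pattern. Of 76 tested none was called, and their median was −0.29. At an unadjusted p under 0.05 none was higher and 1 was lower, beside 4.86% and 7.13% of all genes. With the Y-linked covariate the median of the 13 mitochondrial mRNAs was 0.86.

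**Figure D3:**
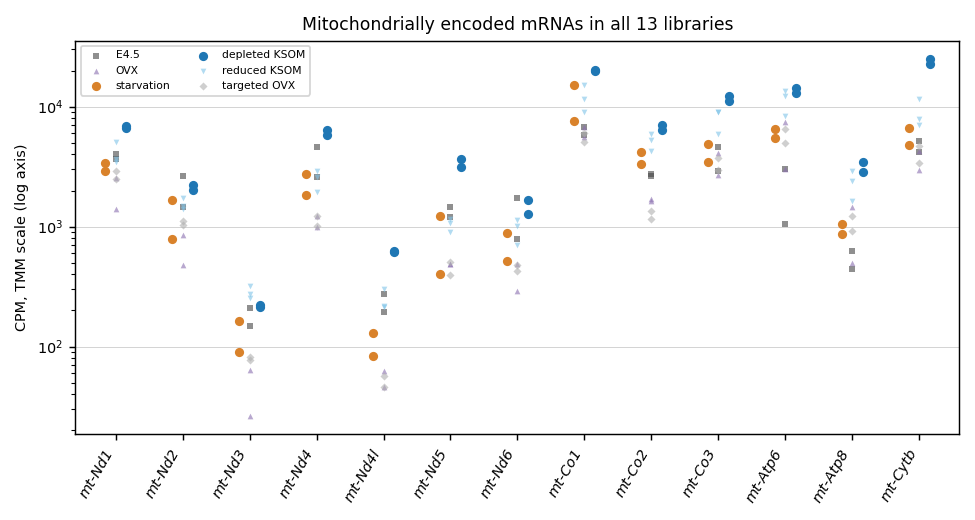
Level of each mitochondrially encoded mRNA, in CPM on a logarithmic axis, with 1 symbol per library. The depleted KSOM points lie above the starvation points for all 13 mRNAs. The gap is widest for mt-Nd4l, mt-Nd5 and mt-Cytb and narrow for mt-Nd2 and mt-Nd3.

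The amino acid response was compared through 38 tested genes of the ATF4 programme, of which none passed the test. Members higher in depleted KSOM at an unadjusted p under 0.05 numbered 14, and 1 was lower, beside 4.86% and 7.13% of all genes. The median log2 fold change was 1.09, or 0.95 when genes at 0 in a whole group are set to their bound. Asns, which makes asparagine, stood at 115 and 233 CPM in starvation and at 473 and 300.2 CPM in depleted KSOM (1.15 ± 0.43, adjusted p = 0.326). Ddit3, the stress factor CHOP, stood at 36.0 and 97.7 CPM against 105 and 188 CPM (1.13, adjusted p = 0.335). Mthfd2, a mitochondrial folate enzyme, stood at 4.98 and 6.79 CPM against 19 and 32.3 CPM (2.12, adjusted p = 0.152). The groups did not overlap for these genes. Against E4.5, the list's median was −0.62 in starvation and 0.36 in depleted KSOM, and both values share the E4.5 libraries. The starvation libraries differed from each other, with list medians of 1.68 and 3.11 log2 CPM against 3.84 and 4.61 in depleted KSOM. Cth, which makes cysteine from cystathionine, was the 1 member lower at an unadjusted p under 0.05, at 85.8 and 94.8 CPM against 24.5 and 41.3 CPM (adjusted p = 0.285). The mRNA of Atf4 itself stood at 23.1 and 97.4 CPM against 60.6 and 41.5 CPM, and that of Nupr1, a stress-induced nuclear protein, at 124 and 2706 CPM against 1354 and 1789 CPM. In both the starvation libraries enclosed depleted KSOM. The list's median ranged from 0.64 to 1.39 when a library was left out.

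The composite element bound by ATF4 with C/EBP partners was searched for as TGATGNAAN on both strands, in RefSeq promoter windows of GRCm38.p6 from 250 bases before to 50 after each start. Windows were found for 33 genes of the list, and 13 of them held the element (39.4%), against 4.5% of 27025 genes. The list was drawn up as ATF4 programme genes, so this share describes the choice of list and not these libraries. The windows below show the element in capitals, as read on the gene's strand, in 3 members with an unadjusted p under 0.05 (Asns, Atf3, Herpud1) and in 2 that lacked it (Nupr1, Pycr1). In Asns and Pycr1 the element reads in the direction of the gene, and in the other 3 it reads in reverse.
Asns (chr6:7693214-7693242, minus strand, first base of the element 23 before the start): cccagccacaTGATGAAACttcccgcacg
Atf3 (chr1:191183426-191183454, minus strand, 111 before the start): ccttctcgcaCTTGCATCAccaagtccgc
Herpud1 (chr8:94386306-94386334, plus strand, 113 before the start): accacggcggGTTGCATCAgcccgcaccc
Nupr1 (chr7:126625563-126625591, minus strand, 111 before the start): aaagggccagATTGCATCAgacagggctt
Pycr1 (chr11:120643833-120643861, minus strand, 103 before the start): gccctgtgtaTGATGCAATgcacaaggct

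Values of members with and without the element are given side by side, and their difference was not tested. Of 12 tested genes with the element, 4 were higher at an unadjusted p under 0.05, beside 4.86% of all genes, and the median was 1.14. Of 20 without it, 10 were higher and the median was 1.18. Atf3, a stress-induced repressor, stood at 0.510 and 0.540 CPM in starvation but at 12.4 and 0.648 CPM in depleted KSOM, so its difference rested on 1 library. Herpud1, a protein of endoplasmic reticulum quality control, stood at 0.764 and 22.5 CPM against 44.7 and 70.0 CPM (adjusted p = 0.395). Of 23 genes of the unfolded protein response none was called, and the median was 0.35. At an unadjusted p under 0.05, 3 were higher and 2 lower, beside 4.86% and 7.13% of all genes.

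Genes for burning fatty acids leaned to depleted KSOM without any passing. Of 30 tested, 8 were higher at an unadjusted p under 0.05 and none was lower, beside 4.86% and 7.13% of all genes, and the median log2 fold change was 0.45. Cpt1a, which attaches carnitine to fatty acids at the outer mitochondrial membrane, stood at 8.14 and 6.34 CPM in starvation and at 71.8 and 65.8 CPM in depleted KSOM (3.25 ± 0.65, adjusted p = 0.0708). The carnitine importer Slc22a5 stood at 49.7 and 124 CPM against 517 and 444 CPM (2.47 ± 0.56, adjusted p = 0.102). Cpt2, the enzyme of the inner membrane, stood at 20 and 18 CPM against 39.4 and 42.6 CPM (1.11, adjusted p = 0.272). These 3 genes span the carnitine route from uptake to the matrix, and both depleted KSOM libraries exceeded all 11 others for Cpt1a, Slc22a5 and Cpt2. Slc22a21, a carnitine transporter beside Slc22a5 in the same family and looked up after the values were seen, stood at 12.6 and 16.7 CPM against 61.7 and 62.4 CPM (2.08, adjusted p = 0.075). Of the enzymes of the β-oxidation cycle, Hadha and Acadm are given as examples. Hadha stood at 48.8 and 28.9 CPM against 56.9 and 38.7 CPM, and Acadm at 329 and 772 CPM against 753 and 733 CPM, with overlap in both.

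**Figure D4:**
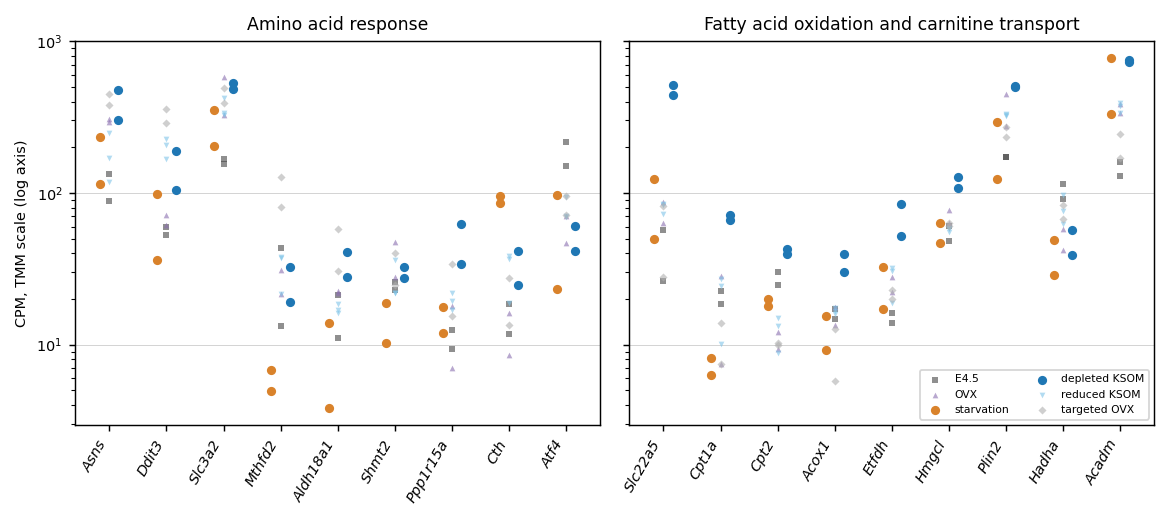
Level of 9 genes of the amino acid response (left) and 9 of fatty acid use (right), in CPM on a logarithmic axis, with 1 symbol per library. The depleted KSOM points lie above both starvation points for Asns, Mthfd2, Slc22a5, Cpt1a and Cpt2, below them for Cth, and overlap them for Atf4, Hadha and Acadm.

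No listed gene for the synthesis of fat or the use of glucose was called. Of 28 genes for fatty acid and lipid droplet synthesis, 7 were lower and 2 higher at an unadjusted p under 0.05, beside 7.13% and 4.86% of all genes, and the median was −0.11. Scd1, the stearoyl-CoA desaturase, stood at 54.3 and 123 CPM in starvation and at 16.6 and 13 CPM in depleted KSOM (−2.58, adjusted p = 0.113). Fasn, the fatty acid synthase, stood at 20.5 and 14 CPM against 1.33 and 6.02 CPM (−2.23, adjusted p = 0.183). The groups did not overlap for either enzyme. Fabp5, a fatty acid carrier, stood at 163 and 19.5 CPM against 0.851 and 3.13 CPM (−5.52, adjusted p = 0.0685). Pemt, which makes phosphatidylcholine from phosphatidylethanolamine and belongs to no list used here, was called, at 54.6 and 24.0 CPM against 3.50 and 4.87 CPM (−3.23 ± 0.58, adjusted p = 0.0473). Of 31 glucose uptake and glycolysis genes none was called, and 7 were lower and 2 higher at that threshold. Their median was −0.08, with 14 genes above 0 and 17 below. Pfkp, a phosphofructokinase, stood at 12.4 and 13.8 CPM against 2.61 and 3.14 CPM (−2.18, adjusted p = 0.0687). The glucose carrier Slc2a1 stood at 90.2 and 62.3 CPM against 33.4 and 39.3 CPM (adjusted p = 0.416), while Slc2a3 overlapped at 471 and 794 CPM against 635 and 561 CPM.

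No gene of the other nutrient-linked groups was called. Of 47 autophagy and lysosome genes, 7 were higher and 1 lower at an unadjusted p under 0.05, beside 4.86% and 7.13% of all genes, and the median was 0.21. Becn1, which starts autophagosome formation, stood at 28.2 and 43.8 CPM in starvation and at 87.3 and 98.1 CPM in depleted KSOM (1.36, adjusted p = 0.104). The lysosomal hydrolase Hexa stood at 196 and 194 CPM against 661 and 387 CPM (1.43, adjusted p = 0.137), while the protease Ctsh stood at 50.4 and 21.7 CPM against 5.41 and 9.76 CPM (−2.25, adjusted p = 0.162). The palindrome CACGTG, the E-box read by the lysosomal regulator TFEB, was in 32.4% of the 37 promoter windows found for that list and in 8.09% of all genes' windows. Such a share describes the choice of list and not these libraries. The 45 tested genes of the lysosomal proton pump, Ragulator and mTORC1 regulators gave 5 higher and 1 lower at that threshold, beside the same shares of all genes, and a median of 0.21. Amino acid transporters (29 tested, median −0.08), the TCA cycle (28, 0.13), sterol synthesis and uptake (26, 0.00), FOXO and insulin signalling (24, −0.01) and hypoxia targets (19, −0.06) had at most 3 members in either direction at that threshold and none called.

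No gene of the ribosomal protein or G1/S and replication lists passed. Of the 79 cytosolic ribosomal protein genes, 6 were lower and none higher at an unadjusted p under 0.05, near the 7.13% lower of all genes, and their median was −0.46. Both groups lay below E4.5 for this list, with medians of −1.26 in depleted KSOM and −0.86 in starvation from comparisons that share the E4.5 libraries. Rpl12 had the smallest p of the list, at 757 and 404 CPM in starvation and 176 and 298 CPM in depleted KSOM (adjusted p = 0.241). Of 54 G1/S and replication genes, 14 were lower and 2 higher at that threshold, beside 7.13% and 4.86% of all genes, and the median was −0.34. Gins1, of the replicative helicase, stood at 55.9 and 20.2 CPM against 9.71 and 6.72 CPM (−2.21, adjusted p = 0.0712), and Rfc3, of the clamp loader, at 54.6 and 43.1 CPM against 14.7 and 16.4 CPM (−1.65, adjusted p = 0.0799). Cdk2, the kinase of S phase entry, lay the other way, at 34.2 and 36.5 CPM against 88.5 and 83.3 CPM (adjusted p = 0.305).

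Mitotic genes depended on 1 starvation library. The median of 50 G2/M genes was −0.86 with 8 lower and none higher at an unadjusted p under 0.05, beside 7.13% and 4.86% of all genes. Without starvation replicate 1 the median was 0.30, and that of the G1/S list 0.01. Cdca8, of the chromosomal passenger complex, stood at 500.4 CPM in starvation replicate 1 and at 113 CPM in replicate 2, against 68.9 and 33.4 CPM in depleted KSOM (adjusted p = 0.154). Pttg1, the securin, stood at 302 and 49.1 CPM against 48.7 and 30.2 CPM, and Mki67, a marker of cycling cells, at 55.7 and 20.8 CPM against 18.7 and 8.78 CPM. In each case starvation replicate 1 was the high library.

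Signalling genes downstream of FGF and ERK leaned lower in depleted KSOM. Of 27 tested, 1 was called lower, beside 0.165% of all genes. At an unadjusted p under 0.05, 6 were lower and 1 higher, beside 7.13% and 4.86%, and the median of −0.90 was the lowest of the 31 lists drawn in the plot of gene lists. Dusp4, a phosphatase that switches ERK off and is itself induced by ERK, stood at 19.9 and 8.60 CPM in starvation and at 1.10 and 1.69 CPM in depleted KSOM (−3.36 ± 0.59, adjusted p = 0.0437). Dusp6, with the same role, stood at 57.5 and 55.7 CPM against 14.6 and 13.6 CPM (−2.00 ± 0.51, adjusted p = 0.15). Etv4, an ETS factor induced by FGF, stood at 2.01 and 2.15 CPM in starvation and had no count in depleted KSOM (adjusted p = 0.125). Dusp1, which answers to stress kinases, lay the other way at 15.9 and 9.02 CPM against 58.9 and 39.7 CPM (adjusted p = 0.182). Against E4.5 the list's median was 0.56 in starvation and −0.91 in depleted KSOM. Fgfr1, a receptor of this pathway, stood at 64.1 and 57.4 CPM in starvation and at 10.7 and 16.5 CPM in depleted KSOM (−2.16, adjusted p = 0.18).

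The 29 tested genes of EGF, LIF and implantation signalling included Itgav, called higher. With it, 4 were higher and 4 lower at an unadjusted p under 0.05 (4.86% and 7.13% of all genes), and the median was −0.23. Itgb1, a partner subunit of αv, stood at 54.6 and 44.7 CPM in starvation and at 97.8 and 70.5 CPM in depleted KSOM (adjusted p = 0.406). Spp1, the secreted αv ligand osteopontin, lay the other way at 2282 and 918 CPM against 232 and 280 CPM (−2.64, adjusted p = 0.204). Stat3, which carries the LIF signal, stood at 40.0 and 97.7 CPM against 210 and 145 CPM (adjusted p = 0.221).

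Among the lineages of the blastocyst, the epiblast list had the lowest median. Of 30 epiblast and naive pluripotency genes, Dppa2 was called lower, beside 0.165% of all genes. At an unadjusted p under 0.05, 9 were lower and 1 higher (7.13% and 4.86% of all genes), and the median was −0.86. In whole blastocysts fewer epiblast cells and less RNA per cell cannot be told apart. Klf2, a naive factor, stood at 35.2 and 26 CPM in starvation and at 8.02 and 7.97 CPM in depleted KSOM (−1.93, adjusted p = 0.104). Pou5f1, which encodes OCT4, stood at 40.8 and 31.3 CPM against 25.6 and 14.6 CPM (−0.84, adjusted p = 0.427). Nanog overlapped, at 10.6 and 40.2 CPM against 23.2 and 31.5 CPM. Dppa3, which protects maternal methylation, stood at 929 CPM in starvation replicate 1 and at 18.2 CPM in replicate 2, against 1.45 and 10.1 CPM, so 1 library set its difference. With the Y-linked covariate the median of the epiblast list was −0.16. Of 32 primitive endoderm genes and 28 trophectoderm genes none was called, with medians of −0.40 and −0.19. Cdx2, the trophectoderm factor, overlapped at 35 and 59.3 CPM against 42.0 and 45.6 CPM, and Gata6, of the primitive endoderm, stood at 94.2 and 92.9 CPM against 37.2 and 48.7 CPM (adjusted p = 0.329). The de novo DNA methyltransferases lay in opposite directions. Dnmt3b stood at 155 and 107 CPM in starvation and at 27.6 and 40.5 CPM in depleted KSOM (−1.94, adjusted p = 0.0904). Dnmt3a stood at 3.85 and 4.88 CPM against 20.2 and 11.7 CPM (1.87, adjusted p = 0.158), and neither pair of groups overlapped.

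Genes that move ions and water into the blastocoel were mixed. Fxyd4, a small regulator of the sodium pump, stood at 61.6 and 101 CPM in starvation and at 16.8 and 16.5 CPM in depleted KSOM (−2.29 ± 0.38, adjusted p = 0.037). Reduced KSOM, the other cultured group, held 205 to 270 CPM, the highest of the series, so the cultured groups lay at opposite ends. The water and glycerol channels Aqp3 and Aqp9 lay the other way, Aqp3 at 79.6 and 35.7 CPM in starvation and at 195 and 111 CPM in depleted KSOM (adjusted p = 0.277) and Aqp9 at 39.9 and 58.9 CPM against 119 and 115 CPM (adjusted p = 0.183). Aqp11, a channel inside the cell, stood at 13.3 and 19.3 CPM in starvation and at 0.222 and 1.17 CPM in depleted KSOM (−4.54, adjusted p = 0.316). Of 22 genes of the list, 1 was called lower, beside 0.165% of all genes. At an unadjusted p under 0.05, 3 were higher and 6 lower, beside 4.86% and 7.13% of all genes.

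Oxidative stress and detoxification genes lay in both directions without passing. Of 28 oxidative stress genes none was called. At an unadjusted p under 0.05, 4 were lower and 3 higher, beside 7.13% and 4.86% of all genes. The 3 higher were Nfe2l2, Hmox1 and Gclm, without overlap of the groups. Nfe2l2 stood at 15.5 and 39.2 CPM in starvation and at 60.4 and 65.7 CPM in depleted KSOM (adjusted p = 0.288). Hmox1 stood at 20.1 and 7.40 CPM against 40.9 and 62.3 CPM (adjusted p = 0.177), and Gclm at 4.15 and 9.01 CPM against 21.1 and 19.6 CPM (adjusted p = 0.265). Gsta4, a glutathione transferase, stood at 653 and 228 CPM in starvation and at 82.7 and 86.4 CPM in depleted KSOM (−2.38, adjusted p = 0.0623), and Gsta1, a close relative whose reads could be shared with other family members, at 149 and 98.0 CPM against 0.234 and 3.89 CPM (adjusted p = 0.0664). Alpl, alkaline phosphatase, did not pass between the groups at 395 and 245 CPM against 1473 and 1480 CPM (2.21, adjusted p = 0.0781). Against E4.5 both groups were higher for Alpl, by 2.55 in starvation and 4.75 in depleted KSOM (adjusted p = 0.0168 and 0.00126), from comparisons that share the E4.5 libraries. Gchfr, Mt1 and Slc2a3 are examples of abundant genes with small differences, at log2 fold changes of 0.19, 0.23 and −0.08 (adjusted p = 0.904, 0.945 and 1).

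**Figure D5:**
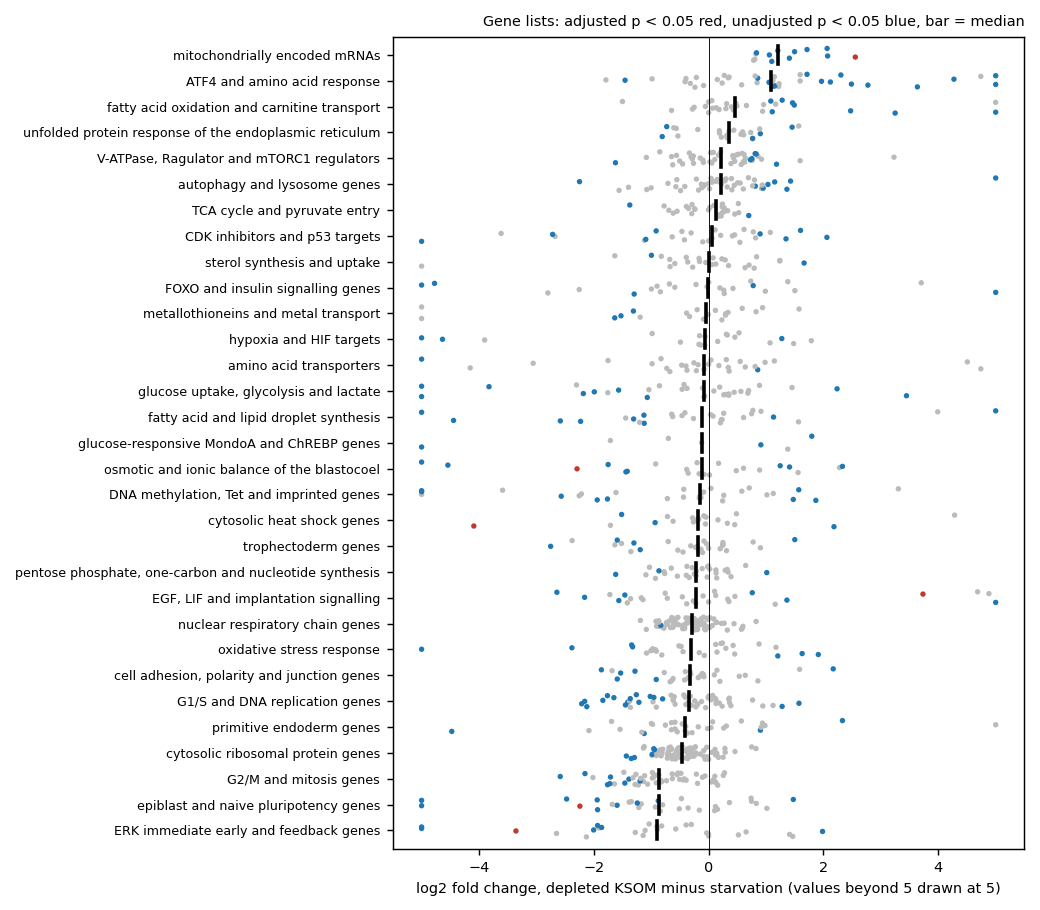
Each point is a tested gene of a list, placed at its log2 fold change of depleted KSOM minus starvation, with values beyond 5 drawn at 5. Red points passed the adjusted test, blue points had an unadjusted p under 0.05, and black bars are list medians. The mitochondrially encoded mRNAs (median 1.20) and the amino acid response (1.09) lie farthest to the right and the ERK genes (−0.90) farthest to the left.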

How the data were processed

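RNA of whole blastocysts was amplified with an ultra-low-input full-length cDNA kit, per the labels' protocols, and no molecular identifiers are named. The deposited table holds, for 31528 genes on GRCm38 and 13 libraries, whole-number counts and FPKM values made by the authors. Cutadapt 1.9, HISAT2 2.0.4 and StringTie 1.3.4d are named in the submitters' processing notes. The annotation and the tool that counted are not given in the sources used here. No column of the table was left unmapped.

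Genes were kept with filterByExpr by group, which left 21808. Scaling used the trimmed mean of M values (TMM), and CPM are on that scale, also where summed over a list. Counts were fitted with edgeR 4.0.16 (glmQLFit and glmQLFTest) in 1 model of 13 libraries in 6 groups with 7 residual degrees of freedom and a common biological coefficient of variation of 0.896. A Benjamini-Hochberg adjusted p under 0.05 was the threshold for a call. Standard errors were derived from each F value. Where a group had no counts, a floor of 3 counts per library gave a bound. Changes were planted in simulated counts of these groups, in 50 genes per size. The share found was 26% for 4-fold, 72% for 8-fold and 88% for 16-fold, and 7 of 150 calls were false. Changes were planted only in genes above a minimum mean level, so these shares do not cover genes of low abundance. All other genes had the same mean in every group.

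The comparison, the 37 gene lists (1034 of 1057 genes tested) and the genes named were chosen with earlier results of these data known. Named genes were up to 12 per direction among called genes of mean log2 CPM of at least 4, up to 3 called or 2 uncalled per list, 39 further genes, and 26 chosen after their values were seen. A single-gene result is not reported here. Others given as examples of a list were also chosen after their values were seen. The labels do not say that replicate numbers pair the samples, so the main fit used no block. Replicate 1 deviations of depleted KSOM and starvation had a correlation of 0.00 over 9209 genes. A single correlation between these groups cannot show whether samples were paired. Alternatives were limma 3.58.1 on deposited FPKM (log2, plus 1 or 0.1), DESeq2 1.42.0, other scalings and filters, fewer libraries, a replicate block and a Y-linked covariate. Software was R 4.3.3, Python 3.11.15 and matplotlib 3.10.9.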

Additional observations from a re-analysis of the deposited data

How the results depend on the processing

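The 50 calls became 28 with library totals, 1245 with DESeq2, 188 and 164 with limma on log2 FPKM plus 1 and plus 0.1, 827 without a low-count filter, 107 at a mean CPM of at least 5, 0 in a fit of only these 4 libraries, 18 with the replicate block and 0 with the Y-linked covariate (chosen after seeing the data). Leaving out 1 library gave 15 to 482, with 15 and 18 without depleted KSOM replicates 1 and 2 and 482 without starvation replicate 2. The share of calls higher in depleted KSOM was 28%, and 46.3% with limma on log2 FPKM plus 1, 43% at a mean CPM of at least 5 and 47.7% without starvation replicate 2. List genes called went from 6 to 123 with DESeq2, 15 with limma at either pseudocount, 110 without a filter, 18 at a mean CPM of at least 5, 0 with only 4 libraries, 3 with the replicate block and 0 with the covariate, and to 1 to 66 when a library was left out. The mitochondrial difference in share was 10.7 points in FPKM and 5.30 to 7.60 when a library was left out. Each of the 50 kept its direction in every alternative that gave it a value. They were called in these same libraries, without overlap of the groups, so a kept direction is no independent support. Median-of-ratios scaling called 58, of which 49 were among the 50, and the block kept 15 of the 50.

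No called gene changed sign, with the limit given above. Among uncalled genes, 25 values changed sign or went to 0, counting only shifts above 1 SE or calls in the alternative. Smaller changes of sign were not counted, and the cause was not tested. Leaving out 1 library at a time gave log2 fold changes for the stress and metabolic genes of Sesn2 −0.34 to 1.40, Atf4 −0.89 to 1.15, Arrdc4 −10.80 to 0, Trib2 −9.50 to 0, Slc2a3 −0.37 to 0.34, Ldha −0.82 to 0.089, Mt2 −0.46 to 0.44, Sgk1 −1.69 to 1.27. For lineage genes they were Cdx2 −0.40 to 0.33, Gata4 −1.08 to 0.48, Sox17 −1.02 to 1.48, Lrp2 −1.10 to 0.045, Cubn −2.44 to 1.98. For signalling and other genes they were Egfr −0.76 to 2.84, Lifr −0.99 to 1.44, Myc −1.36 to 0.17, Car4 −1.44 to 0.0088, Dcn −13.52 to 0. Arrdc4, Trib2 and Dcn had counts only in starvation replicate 2 of the 4 libraries, so their fitted values are no measure of size. With the covariate, Sox2 gave 0.56, Gata4 0.36, Ldha 0.40, Gchfr −0.42, Car4 0.55, Lrp2 0.43 and Igf2 4.08. Low-count genes limit the precision, since 3 counts equal 0.0345 to 0.0425 CPM in these libraries and copies made by amplification count as separate reads.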

Other observations

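Other abundant genes lay apart without passing, and all were chosen after their values were seen. The replacement histone gene H3f3b stood at 6100.4 and 5236 CPM in starvation and at 1314 and 1752 CPM in depleted KSOM (log2 fold change −1.89 ± 0.44 SE, adjusted p = 0.108), and it has near-identical copies that could share its reads. Resf1, a regulator of retroelement silencing, stood at 108 and 186 CPM against 15.2 and 17.2 CPM (−3.18 ± 0.67, adjusted p = 0.08). Against E4.5 both genes were higher in starvation (adjusted p = 0.00989 and 0.0156) and did not pass in depleted KSOM (adjusted p = 0.146 and 0.513). For H3f3b and Resf1 the starvation libraries lay above the other 11.

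Rn7s1, an RNA of the signal recognition particle, stood at 68.3 and 281 CPM in starvation and at 1125 and 1448 CPM in depleted KSOM (2.88 ± 0.63, adjusted p = 0.0918). Mtf1, the metal-responsive transcription factor, stood at 125 and 114 CPM against 36.2 and 40.7 CPM (−1.64 ± 0.35, adjusted p = 0.0809), while its target Mt1 stood at 5369 and 3709 CPM against 5237 and 5416 CPM. The trophectoderm gene Plac1, which is X-linked, lay higher in depleted KSOM, at 144 and 87.0 CPM against 340 and 313 CPM (1.5 ± 0.36, adjusted p = 0.113), although the median of abundant X-linked genes lay lower.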
